A study of Homo sapiens with 4 samples.

Results

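The 9 genes described here encode proteins that remove, read or place methyl groups on RNA outside the main m6A writer complex and the YTH family. They are the m6A erasers FTO and ALKBH5, the IGF2BP readers IGF2BP1, IGF2BP2 and IGF2BP3, and the RNA methyltransferases METTL16, METTL5, ZCCHC4 and PCIF1. They were chosen by symbol from the 36203 Ensembl identifiers in the deposited expression table, where each of the 9 had 1 identifier. The series compared RNA recovered with an antibody against YTHDF3 (RNA immunoprecipitation, RIP) with input RNA in a breast cancer cell line, 2 libraries of each, and gave 1 expression value per gene and library. The line is MDA-MB-231 by one label, while the culture conditions refer to MDA-MB-231Br, its brain-seeking derivative, so the exact line is uncertain. Both groups were grown alike, in DMEM with serum and antibiotics, with no treatment or genetic change in the labels. The RIP antibody is listed as a Santa Cruz Biotechnology product, whereas the extraction text speaks of embryos and of an m6A antibody, which fits neither the cells nor that listing. No precipitation with a control antibody was analysed here, so a level in RIP cannot be split into RNA held by YTHDF3 and RNA carried along.

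N6-methyladenosine (m6A) is the commonest internal modification of mRNA and is placed mainly by METTL3 with METTL14. FTO and ALKBH5 are dioxygenases that remove it, YTH proteins such as YTHDF3 bind it and affect translation and decay, and the IGF2BP proteins bind m6A-containing mRNA and stabilise it. METTL16, METTL5 and ZCCHC4 place single m6A marks on particular RNAs, and PCIF1 methylates the adenosine next to the mRNA cap, so these enzymes act on targets that METTL3 does not. A RIP value here is the amount of each gene's own mRNA in the precipitate and says nothing of how active the encoded protein is.

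Among these mRNAs, METTL5, ZCCHC4 and IGF2BP3 were lower in YTHDF3 RIP than in input and none was higher. Of the 8 genes that passed the filter on low values (at least 1 FPKM in at least 2 libraries, where FPKM is reads per kilobase of transcript, scaled to the reads of the library), 3 were lower, 0 were higher and 5 were not called, by limma on log2(FPKM + 1) with Benjamini-Hochberg adjustment over all 12848 genes tested and a threshold of 0.05. Unadjusted p-values under 0.05 gave the same counts, 3 lower and 0 higher. Over all genes tested, 24.3% were lower and 15.4% were higher, so lower calls were common in this comparison. ZCCHC4 passed the filter only through its inputs, the group in which it is high, so a count that includes it is a description of these 8 genes. The median log2 fold change was -0.37 over the 8 genes and -0.10 over all genes tested. IGF2BP1 was under 1 FPKM in all libraries, with its highest value, 0.603 FPKM, in RIP 1, and was not tested.

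The letters GGACT are the commonest form of the sequence in which METTL3 and METTL14 place m6A. They were searched in 1 annotated coding transcript per gene (GENCODE 29, GRCh38), on the transcript's own strand only, since the search was in RNA. For 7 genes with a match, the 21 bases around the match nearest to the stop codon are shown. METTL3-dependent m6A is known to gather near stop codons. The number of matches per transcript, though not per kilobase, separated the called from the uncalled genes described here. That count was made with the fold changes known and was not tested. The match is in capitals, and U is written as T.

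ALKBH5: tcctcagaGGACTgctctgag
IGF2BP1: tccatggaGGACTtgagtggc
IGF2BP2: gcggccagGGACTctgccgag
IGF2BP3: gcgttcgtGGACTgcccggac
METTL16: tcagctctGGACTgcctctgc
ZCCHC4: gccacactGGACTtaaattca
PCIF1: gctagtctGGACTgctgggac

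These windows lie at chr17:18208331-18208351 (plus strand, coding) for ALKBH5, chr17:49050419-49050439 (plus, 3′ UTR) for IGF2BP1 and chr3:185645380-185645400 (minus, 3′ UTR) for IGF2BP2. They lie at chr7:23469973-23469993 (minus, coding) for IGF2BP3, chr17:2419663-2419683 (minus, 3′ UTR) for METTL16, chr4:25369229-25369249 (plus, 3′ UTR) for ZCCHC4 and chr20:45947788-45947808 (plus, 3′ UTR) for PCIF1. METTL5 had no match in its transcript. The adenosine of the match lay 43 bases from the end of the stop codon in PCIF1, 55 in ALKBH5, 75 in ZCCHC4, 141 in IGF2BP2 and 297 in METTL16. It lay 985 bases away in IGF2BP1 and 1612 in IGF2BP3. A match is a description of the letters and does not show that a site is methylated.

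The libraries differed in depth and in balance. Total reads are not in the table, so depth was gauged from barely detected genes with 1 annotated transcript. The product of FPKM and exon length in kilobases that recurs most often among them was taken as 1 read. It was 0.163 and 0.137 for the inputs, 0.0964 for RIP 1 and 0.322 for RIP 2, which makes RIP 1 the deepest library and RIP 2 the shallowest. RIP 2 carried an excess over RIP 1 on chromosomes 1 and 10 (median log2 difference 1.67 and 0.67), where none of the 9 genes lies, and on the other autosomes and X it was lower by 0.34 to 0.91. The summed FPKM was 700141 and 690869 in the inputs and 301226 and 301483 in RIP, so the direction of middling changes turns on how libraries are scaled. Of all calls, 38.8% were higher on the deposited values, 52.1% after quantile normalization, 53.6% after RIP 2 was shifted to RIP 1, and 75.3% after every library was scaled to the same summed FPKM. The median log2 fold change over all genes tested was -0.10, 0.13, 0.17 and 0.96 in the same order. Of markers of the labelled cell type, VIM, CD44, EGFR, AXL, CAV1 and KRT18 were at 19.6 FPKM or more in all 4 libraries, while ESR1 and CDH1 of luminal breast, PTPRC, CD3E and HBB of blood and CDH5 of endothelium were listed at 0 in all 4. The other luminal markers were ERBB2, at 5.77 to 31.1 FPKM, EPCAM, at 12.0 and 3.88 FPKM before precipitation and 1.10 and 0.187 FPKM after it, and PGR and GATA3, which like PECAM1 of endothelium stayed at or under 0.690 FPKM.

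**Figure D1:**
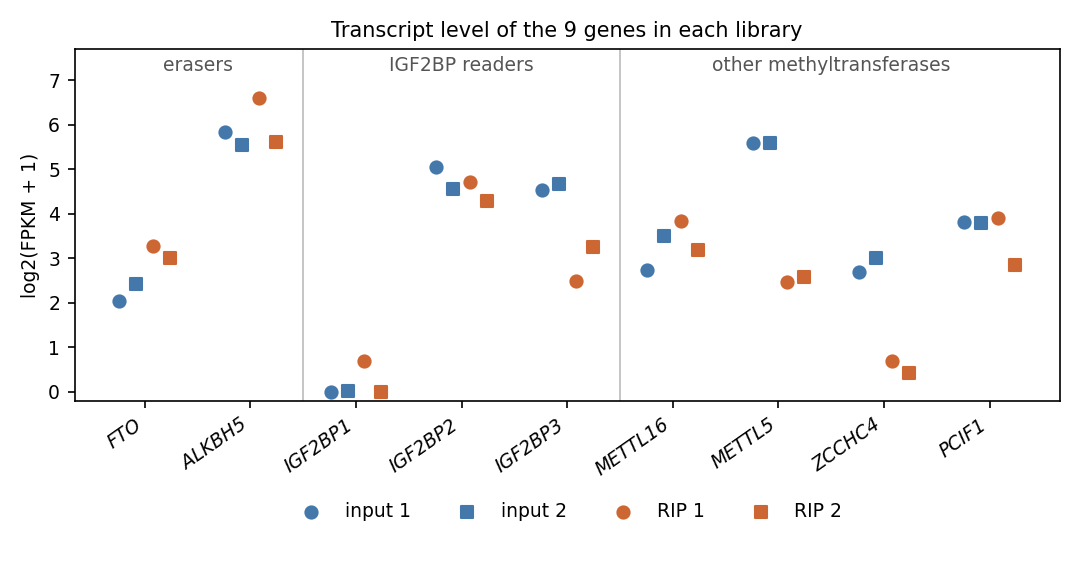
Level of the 9 mRNAs as log2(FPKM + 1) in each library, with inputs in blue and RIP in orange, circles for library 1 and squares for library 2. METTL5, ZCCHC4 and IGF2BP3 have both RIP points below both input points, and FTO has both above. IGF2BP1 lies at or near 0 except in RIP 1 (0.680).

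FTO acts on internal m6A and also on the methylated adenosine next to the cap. Its gene (ENSG00000140718) lies on chromosome 16, 53701692 to 54158512, plus strand. FTO mRNA measured 3.10 and 4.34 FPKM before precipitation and 8.66 and 6.99 FPKM after it. Both RIP values lay above both inputs, a pattern that 35.7% of all genes tested shared. The mean level was 3.72 ± 0.878 FPKM before and 7.83 ± 1.18 FPKM after precipitation (SD, n = 2). On the log2 scale the difference of 0.91 (SE 0.49, 95% interval -0.26 to 2.08) missed the threshold in limma (adjusted p = 0.168). When all libraries were scaled to the same summed FPKM, it was 2.09 and passed (limma, adjusted p = 0.0251), against a median of 0.96 for all genes under that scaling.

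ALKBH5, the other known m6A demethylase, is nuclear. Its gene (ENSG00000091542) lies on chromosome 17, 18183078 to 18209954, plus strand. ALKBH5 mRNA measured 56.0 and 45.4 FPKM before precipitation, and 97.0 (RIP 1) and 47.9 FPKM (RIP 2) after it. RIP 1 stood above the other 3 libraries, and RIP 2 lay between the inputs. ALKBH5 thus had a log2 fold change of 0.43 (SE 0.53, 95% interval -0.86 to 1.71, adjusted p = 0.535, limma). This was -0.073 without RIP 1, and 1.63 with equal summed FPKM, where it passed (limma, adjusted p = 0.0483).

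The ratio of FTO to ALKBH5 was taken inside each library. On the log2(FPKM + 1) scale it was -3.80 and -3.12 in the inputs and -3.34 and -2.61 in RIP, so the groups overlapped. The difference of 0.48 had p = 0.667 (exact permutation test, two-sided), and 2 libraries against 2 cannot give less than 0.333.

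IGF2BP1 is an oncofetal RNA-binding protein that is silent in most adult tissues. Its gene (ENSG00000159217) lies on chromosome 17, 48997412 to 49055650, plus strand. IGF2BP1 mRNA was listed at 0 in input 1 and RIP 2, at 0.0165 FPKM in input 2 and at 0.603 FPKM in RIP 1. The input 2 value corresponds to about 1.00 read over its 8274-base transcript. The RIP 1 value corresponds to 51.8 such reads, and RIP 2, at its lower depth, would have held about 17.0 reads at the same FPKM (by exon length) but is listed at 0. The signal in RIP 1 thus had no counterpart in RIP 2, and no fold is given.

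IGF2BP2 is the member of the family that many adult tissues and tumours retain. Its gene (ENSG00000073792) lies on chromosome 3, 185643739 to 185825056, minus strand. IGF2BP2 mRNA measured 32.1 and 22.6 FPKM before precipitation and 25.3 and 18.5 FPKM after it. RIP 1 lay between the inputs and RIP 2 below both. The difference on the log2 scale was -0.30 (SE 0.47, 95% interval -1.45 to 0.84, adjusted p = 0.619, limma), and with equal summed FPKM it was 0.87.

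IGF2BP3 is another oncofetal member, often re-expressed in aggressive tumours. Its gene (ENSG00000136231) lies on chromosome 7, 23310209 to 23470467, minus strand. IGF2BP3 mRNA measured 22.3 and 24.5 FPKM before precipitation and 4.59 and 8.47 FPKM after it. Both RIP values were below both inputs, as for 40.1% of all genes tested. The mean fell from 23.4 ± 1.55 to 6.53 ± 2.74 FPKM (SD, n = 2), 3.59 times lower. This is a log2 fold change of -1.75 (SE 0.50, 95% interval -2.96 to -0.53, adjusted p = 0.0370, limma). The call was lost when low genes were not filtered out (adjusted p = 0.0609), with RIP 2 shifted to RIP 1 (-1.47, adjusted p = 0.0758) and with equal summed FPKM (-0.67, adjusted p = 0.325), all in limma. Its exons share 1521 bases with MALSU1 on the other strand (12.4 and 13.0 FPKM before precipitation, 8.87 FPKM in RIP 1, listed at 0 in RIP 2), and since the use of strand in counting is not given, reads there could have been assigned to either gene.

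The ratio of IGF2BP2 to IGF2BP3 was also taken inside each library. On the log2(FPKM + 1) scale it was 0.50 and -0.11 in the inputs and 2.23 and 1.04 in RIP. Both RIP ratios lay above both input ratios, with a difference of 1.44 (exact permutation test, two-sided, p = 0.333, the smallest possible). In input the paralogs overlapped in level, whereas in RIP the lowest IGF2BP2 value, 18.5 FPKM, was above the highest IGF2BP3 value, 8.47 FPKM.

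METTL16 methylates the spliceosomal small nuclear RNA U6 and hairpins in the 3′ UTR of MAT2A mRNA, which encodes the enzyme that makes S-adenosylmethionine, the methyl donor. The METTL16 gene (ENSG00000127804) lies on chromosome 17, 2405562 to 2511891, minus strand. METTL16 mRNA measured 5.64 and 10.4 FPKM before precipitation and 13.3 and 8.14 FPKM after it. The groups overlapped, with the lowest value in input 1 and the highest in RIP 1. Its difference on the log2 scale was 0.40 (SE 0.54, 95% interval -0.92 to 1.71, adjusted p = 0.576, limma), and it was 0.0078 without input 1, 0.073 without RIP 1, 0.72 without RIP 2 and 0.78 without input 2. MAT2A, its substrate, rose from 49.3 and 67.9 FPKM before precipitation to 306 and 292 FPKM after it (2.35 on the log2 scale, SE 0.50, adjusted p = 0.0173, limma).

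METTL5 places a single m6A on the rRNA of the small ribosomal subunit and is stabilised by TRMT112. The METTL5 gene (ENSG00000138382) lies on chromosome 2, 169810081 to 169824931, minus strand. METTL5 mRNA measured 47.5 and 47.1 FPKM before precipitation and 4.57 and 4.93 FPKM after it. The libraries of each group lay close together, and the groups did not overlap. Over the 1010-base transcript, the RIP values correspond to about 47.9 reads in RIP 1 and 15.5 in RIP 2, against 295 and 347 in the inputs. With so few reads in RIP 2, the closeness of the RIP values says little of their precision. The mean fell from 47.3 ± 0.342 to 4.75 ± 0.257 FPKM (SD, n = 2), 9.96 times lower. On the log2 scale it fell by 3.07 (SE 0.45, 95% interval -4.15 to -1.99, adjusted p = 0.00910, limma), and 6.90% of all genes tested had a lower one. METTL5 kept its call under the 3 other scalings, with log2 fold changes from -2.94 after quantile normalization to -2.04 with equal summed FPKM. SSB, on the other strand, shares 572 bases with METTL5 exons, 102 of them in the transcript used here, and measured 33.8 and 65.4 FPKM before precipitation and 0.882 and 6.75 FPKM after it. The part of such shared reads in the METTL5 values was not tested.

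ZCCHC4 places the m6A of the large ribosomal subunit's rRNA. Its gene (ENSG00000168228) lies on chromosome 4, 25312785 to 25370383, plus strand. ZCCHC4 mRNA measured 5.48 and 6.97 FPKM before precipitation and 0.623 and 0.347 FPKM after it. Both RIP values were under the 1 FPKM of the filter, which the gene passed through its inputs. Over the 2785-base transcript, the RIP values correspond to about 18.0 reads in RIP 1 and 3.0 reads in RIP 2, against 93.8 and 142 in the inputs. The mean fell from 6.23 ± 1.05 to 0.485 ± 0.195 FPKM (SD, n = 2), 12.8 times lower. The fitted log2 fold change of -2.28 (SE 0.41, 95% interval -3.26 to -1.31, adjusted p = 0.0122, limma) is smaller than that ratio because of the added 1 FPKM, and with a pseudocount of 0.1 it was -3.47 (adjusted p = 0.0225). Like METTL5, ZCCHC4 kept its call under the 3 other scalings, among them -1.91 after quantile normalization and -1.95 with equal summed FPKM.

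PCIF1 writes m6Am at the first transcribed nucleotide of capped mRNA. Its gene (ENSG00000100982) lies on chromosome 20, 45934628 to 45948023, plus strand. PCIF1 mRNA measured 13.2 and 12.8 FPKM before precipitation, and 13.9 (RIP 1) and 6.19 FPKM (RIP 2) after it. RIP 1 was close to the inputs and RIP 2 stood below them. The difference on the log2 scale was -0.43 (SE 0.55, 95% interval -1.75 to 0.88, adjusted p = 0.538, limma), and it was 0.092 without RIP 2 and 0.70 with equal summed FPKM.

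**Figure D2:**
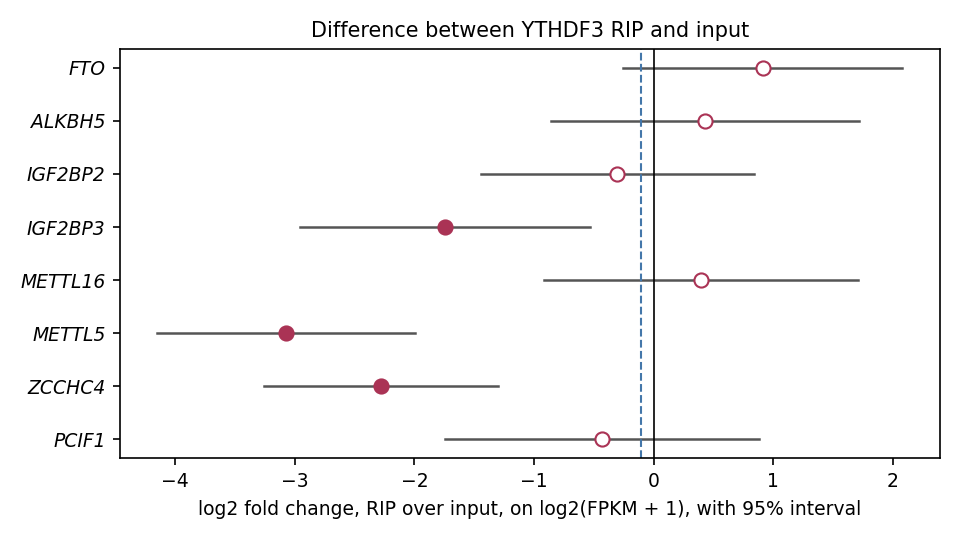
Log2 fold change of RIP over input for the 8 tested genes on log2(FPKM + 1), with 95% intervals from limma; filled points passed the threshold and the dashed line is the median of all genes tested. METTL5 (-3.07), ZCCHC4 (-2.28) and IGF2BP3 (-1.75) have intervals wholly below 0, and the other 5 intervals include 0.

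With either input left out, no gene in the table passed, and for METTL5, ZCCHC4 and IGF2BP3 the adjusted p ran from 0.126 to 0.310 in limma while the log2 fold changes kept their sign. Nothing in the labels says that the 2 libraries of a group are from different cultures, and the p-values rest on a spread that may be technical.

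The order of the levels differed between the groups. By mean FPKM in input it was ALKBH5 (50.7), METTL5 (47.3), IGF2BP2 (27.4), IGF2BP3 (23.4), PCIF1 (13.0), METTL16 (8.0), ZCCHC4 (6.23), FTO (3.72) and IGF2BP1 (listed at 0 or nearly so). The values of ALKBH5 and METTL5 overlapped, as did those of IGF2BP2 and IGF2BP3 and those of METTL16 and ZCCHC4. In RIP, ALKBH5 (72.4) and IGF2BP2 (21.9) led without overlap, and then METTL16 (10.7), PCIF1 (10.1), FTO (7.83) and IGF2BP3 (6.53) overlapped each other. METTL5 (4.75), at the level of ALKBH5 in input, lay at the lower end of IGF2BP3 in RIP, and ZCCHC4 (0.485) lay next to IGF2BP1.

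The genes called lower had the fewest GGACT matches. METTL5 had 0, ZCCHC4 had 1 and IGF2BP3 had 2, whereas METTL16 had 3, ALKBH5 had 4, FTO and IGF2BP2 had 5 each, PCIF1 had 6 and the untested IGF2BP1 had 9. This count was made with the fold changes known, and it is given with no test. Per kilobase the called and uncalled genes were not separated, with 0.425 matches in FTO, 0.471 in IGF2BP3 and 0.525 in METTL16. At least 1 match was found in 87.9% of 19684 coding transcripts (1 per gene) and in 91.4% of the 10847 tested genes that have one, so the absence in METTL5 is the less common state.

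Across those 10847 genes the same order was seen. The median log2 fold change was -1.34 for the 937 genes with 0 matches, -0.85 for the 1688 with 1, -0.34 for the 1837 with 2, 0.12 for the 1653 with 3, and 1.14 for the 846 with 9 or more. The share called lower was 45.5% with 0 matches, 23.8% with 2 and 3.66% with 9 or more. METTL5, ZCCHC4 and IGF2BP3 each lay below the lower quartile of the genes with their own number of matches (-2.71, -2.14 and -1.58), and the other 5 lay between the quartiles of theirs. The genes called lower were picked by these same fold changes, so their places under the quartiles add nothing to the calls. Longer transcripts hold more matches, and across genes, which are not independent replicates, Spearman's rho was 0.35 between fold change and matches, 0.35 between fold change and transcript length, and 0.65 between matches and length. Per kilobase, rho between fold change and matches was 0.14.

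**Figure D3:**
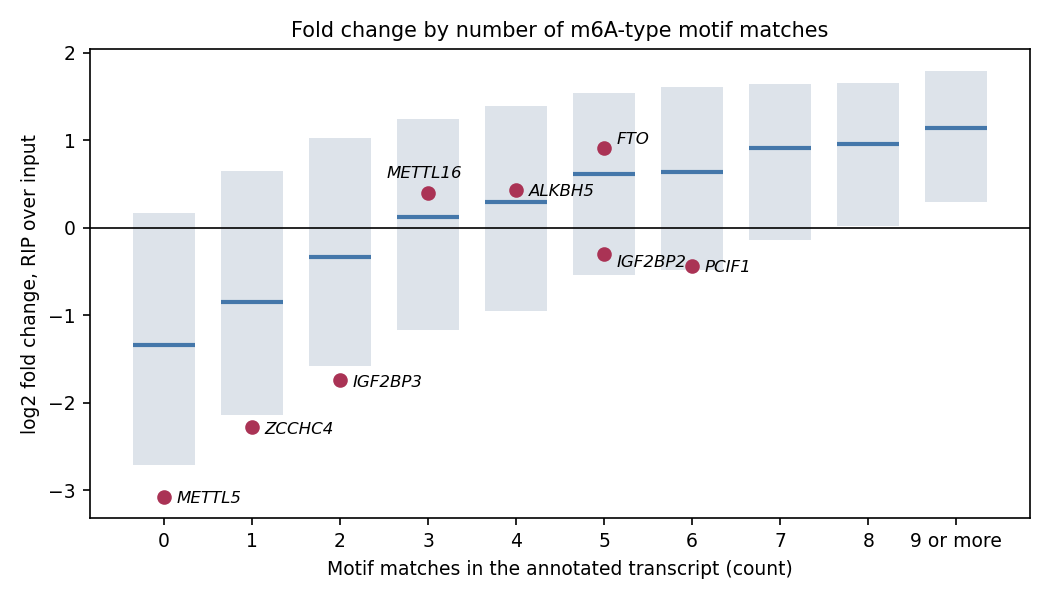
Log2 fold change against the number of motif matches in the annotated transcript; grey bars run from the lower to the upper quartile and blue lines mark the median of all tested genes with that number, and red points are the 8 tested genes. The median climbs from -1.34 with 0 matches to 1.14 with 9 or more, and METTL5, ZCCHC4 and IGF2BP3 lie below their bars.

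Transcript length set METTL5 apart from ZCCHC4 and IGF2BP3. The METTL5 transcript has 1010 bases, 630 of them coding and 63 in the 3′ UTR, and lies in the shortest quintile of tested genes (177 to 1849 bases), where the median log2 fold change was -1.51 and 46.3% of genes were lower. ZCCHC4, at 2785 bases, lies in the middle quintile with ALKBH5, IGF2BP2 and PCIF1, where the median was 0.37 and 14.0% were lower. IGF2BP3, at 4250 bases, lies in the next quintile, where the median was 0.53 and 11.4% were lower. FTO, with 11766 bases and a 3′ UTR of 10026, and METTL16, with 5711, lie in the longest quintile, where the median was 0.82 and 7.42% were lower. In the middle quintile the median was -0.03 for the 872 genes with 0 to 2 matches and 0.62 for the 1296 with 3 or more, and the direction was the same in each of the other quintiles. How far matches, length or other features of the transcripts bear on these values was not tested, and the annotated transcript may not be the one these cells express.

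Each called gene had close neighbours in its 4 values. By Euclidean distance over the 4 log2(FPKM + 1) values, the genes nearest to METTL5 were HSD17B10 (0.26), the histone pseudogene H3F3AP4 (0.30) and C11orf58 (0.39), those nearest to ZCCHC4 were APOOL (0.11), SYAP1 (0.18) and YIPF4 (0.25), and those nearest to IGF2BP3 were SEC23B (0.24), ARF3 (0.27) and PDHX (0.27). Within a distance of 0.5 there were 9, 45 and 16 genes for METTL5, ZCCHC4 and IGF2BP3, so the pattern of each was shared by others. APOOL, SYAP1 and YIPF4, like ZCCHC4, were under 1 FPKM in both RIP libraries. There the added 1 FPKM shrinks distances, so the 45 cannot be set directly against the 9 and 16. H3F3AP4 resembles its parent gene in sequence, and its own level is uncertain.

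The counts of related genes that follow stand against 15.4% higher and 24.3% lower over all genes tested. Of 15 rRNA methyltransferases and cofactors tested (17 listed), 1 was higher, 4 were lower and 10 were not called, with a median of -0.24. The share lower, 26.7%, was near that of all genes tested. TRMT112, the partner of METTL5, fell with it, from 64.5 and 42.2 FPKM before precipitation to 13.3 and 10.1 FPKM after it (-2.07 on the log2 scale, SE 0.48, adjusted p = 0.0211, limma), but was not called with equal summed FPKM (-0.94, adjusted p = 0.149). DIMT1, which dimethylates adenosines of the small-subunit rRNA, fell from 29.8 and 36.3 to 4.90 and 3.26 FPKM (-2.76, adjusted p = 0.0117, limma), and FBL, the methylase of box C/D particles, from 62.8 and 91.6 to 10.9 and 10.4 FPKM (-2.72, adjusted p = 0.0113, limma). MRM2, a mitochondrial rRNA methylase, went the other way, from 13.8 and 12.0 to 63.1 and 40.9 FPKM (1.90, adjusted p = 0.0253, limma).

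The list of tRNA methyltransferases and cofactors also holds other tRNA modification enzymes, such as CDKAL1 and TRMU. ALKBH8 is in it and is counted again among the ALKBH dioxygenases. Of its 32 genes tested (34 listed), 2 were higher, 4 were lower and 26 were not called, with a median of 0.39. These are 6.25% higher and 12.5% lower, against 15.4% and 24.3% of all genes tested. TRMT11, which methylates guanosine in tRNA, measured 9.81 and 8.11 FPKM before precipitation and 0.774 FPKM in RIP 1, and was listed at 0 in RIP 2 (-2.90 on the log2 scale, adjusted p = 0.0106, limma). CDKAL1, which thiolates tRNA, measured 3.86 and 9.66 FPKM before precipitation and 0.177 and 0.691 FPKM after it (-2.35, adjusted p = 0.0189, limma). TRMU (1.70) and LCMT2 (1.66), both of tRNA modification, were higher, and these 2 and CDKAL1 were not called when low genes were kept in (adjusted p = 0.0629, 0.0710 and 0.0560, limma). TRMT11 and CDKAL1 passed the filter only through their inputs, where they are high, and TRMT11 was still called with low genes kept in (adjusted p = 0.0373, limma). LCMT2 measured 0.560 and 1.37 FPKM before precipitation and 5.10 and 5.09 FPKM after it, so it passed only with its RIP values, where it is high.

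Relatives of the erasers and of PCIF1 gave 1 call. Of the 7 other ALKBH dioxygenases, 0 were higher and 0 lower in limma, with a median of 0.25. At an unadjusted p under 0.05 there was 1 higher, ALKBH4 (2.07, adjusted p = 0.0649), and there were 2 lower, ALKBH7 (-1.93, adjusted p = 0.0549) and ALKBH6 (-1.07, adjusted p = 0.0632), named after their values were seen. ALKBH6 passed the filter only through its inputs (1.91 and 3.39 FPKM, against 0.731 and 0.678 FPKM after precipitation), the group in which it is high. Of 8 genes of mRNA cap formation, 1 was higher, 0 were lower and 7 were not called, with a median of 0.14, and the 12.5% higher stands beside 15.4% of all genes tested. CMTR2, which methylates the ribose of the second transcribed nucleotide, measured 16.8 and 12.1 FPKM before precipitation and 70.8 and 35.2 FPKM after it (1.74, adjusted p = 0.0425, limma), but was no longer called with no filter (adjusted p = 0.0742) or with a pseudocount of 0.1 (adjusted p = 0.0524). CMTR1 (-0.32, adjusted p = 0.634), which acts on the first nucleotide, and RNMT (-0.25, adjusted p = 0.711), which methylates the cap guanosine, were not called in limma and turned positive with equal summed FPKM.

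The m6A writers and YTH readers gave no lower calls. Of 8 writer genes, 2 were higher (against 15.4% of all genes tested), namely RBM15 (log2 fold change 3.42, on chromosome 1, where RIP 2 was raised; 2.34 without RIP 2) and RBM15B (2.82), and both missed the threshold with no filter (adjusted p = 0.0516 and 0.0503, limma). Of 5 YTH genes, 3 were higher, among them YTHDF1 (3.15, adjusted p = 0.0143, limma) and YTHDF3 (2.54, adjusted p = 0.0122, limma), with a median of 2.54. The other one, YTHDF2, is named because it lies on chromosome 1, where RIP 2 was raised (79.7 FPKM in RIP 1 and 695 FPKM in RIP 2). The median was 1.01 for the writers and -0.10 for all genes tested.

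Other proposed m6A binders and IGF2BP partners included 0 higher and 3 lower genes of 13, with a median of -0.79. The share lower, 23.1%, was near the 24.3% of all genes tested. HNRNPC, a nuclear binder of RNA that m6A unfolds, fell from 198 and 372 FPKM to 26.8 and 70.3 FPKM (-2.62, adjusted p = 0.0258, limma), and HNRNPA2B1, a proposed nuclear m6A reader, fell from 78.2 and 140 FPKM to 6.96 and 31.7 FPKM (-2.71, adjusted p = 0.0338, limma). Both lost the call with no filter, with RIP 2 shifted and with equal summed FPKM, where adjusted p was 0.0610, 0.0511 and 0.124 for HNRNPC and 0.0783, 0.0722 and 0.150 for HNRNPA2B1 in limma. HNRNPA2B1 also lost it with a pseudocount of 0.1 (adjusted p = 0.0502), and its log2 fold change was -1.69 without RIP 1 and -3.73 without RIP 2.

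In S-adenosylmethionine supply, 2 of 7 genes were higher and 1 was lower, which is 28.6% and 14.3% against 15.4% and 24.3% of all genes tested, with a median of -0.58. MAT2A, described with METTL16, was among the higher genes, and MAT2B, the regulatory subunit of the same enzyme, fell from 43.3 and 38.7 to 5.05 and 2.63 FPKM (-3.16, adjusted p = 0.0100, limma). The subunits thus lay on opposite sides, with MAT2A RIP values above and MAT2B RIP values below those of input, and the difference between them was not tested.

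**Figure D4:**
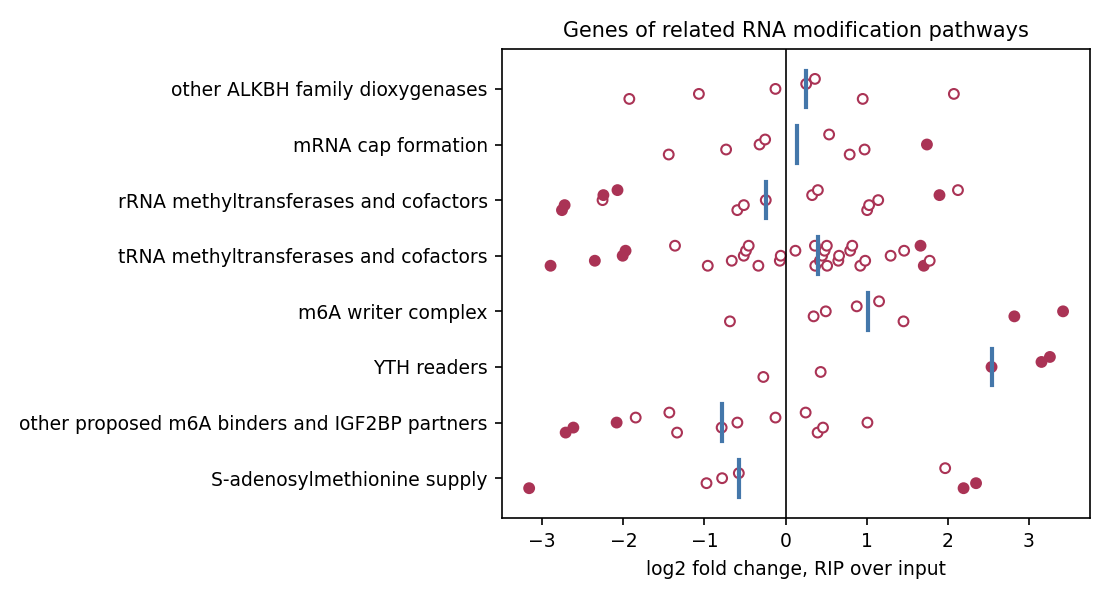
Log2 fold change of RIP over input for the tested genes of 8 related lists; each circle is a gene, filled where it passed the threshold, and the blue line is the list's median. YTH readers have the highest median (2.54) and the proposed m6A binders and IGF2BP partners the lowest (-0.79).

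**Figure D5:**
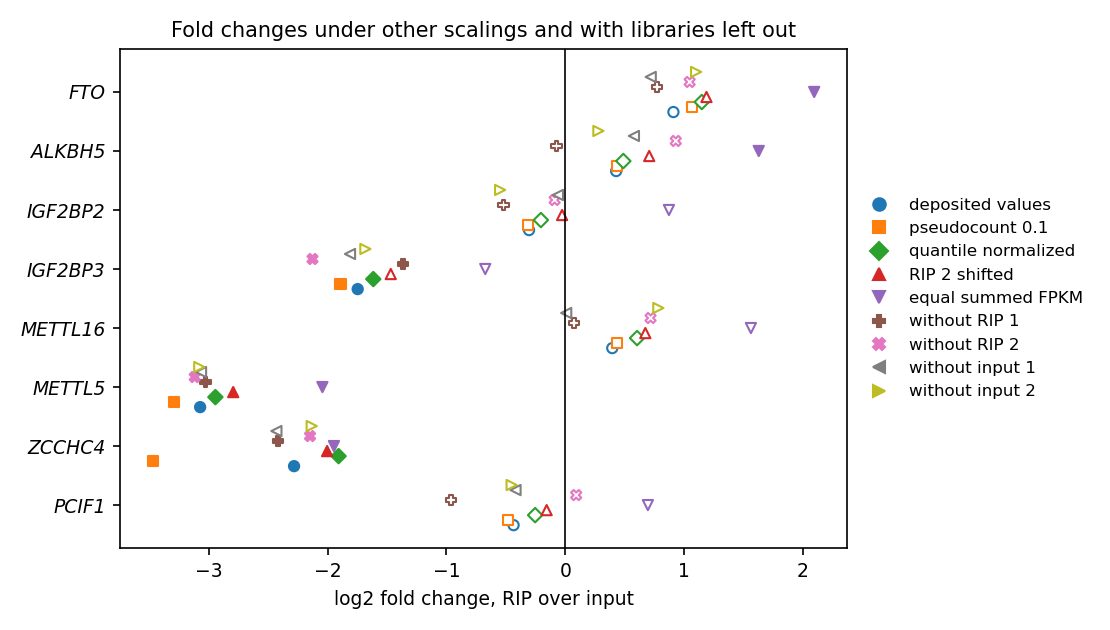
Log2 fold change of the 8 tested genes on the deposited values, under 4 alternatives of pseudocount and scaling, and with each library left out; filled symbols passed the threshold. METTL5 and ZCCHC4 lie below 0 in all settings drawn and pass except with an input left out, whereas ALKBH5, IGF2BP2 and PCIF1 lie on both sides of 0.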

How the data were processed

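Poly(A) RNA libraries were made with a stranded Illumina kit, per the labels' protocols, and alignment with HISAT2 to GRCh38 (hg38) comes from tools and builds listed per the submitters' processing notes. The deposited values were taken to be FPKM, since the values are not whole and their sums after multiplication by exon length are close in all libraries (1566170 to 1733990). For the counting program, annotation, filters and strand setting, the answer is not given in the sources used here. The table has 36217 rows, 14 of which repeat an identifier and were left out, and 36125 of 36203 identifiers were found in GENCODE 29 (GRCh38), from which positions, lengths and transcripts came.

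Genes that reached 1 FPKM in 2 or more of the 4 libraries were tested with limma 3.58.1 in R 4.3.3 on log2(FPKM + 1), with a mean-variance trend, no block and Benjamini-Hochberg adjustment. The fold changes understate changes of low genes. The test was first run on simulated data in which all genes of a group had the same spread. That run checked the code and says nothing of how reliable the calls given here are. The 9 genes and all lists were chosen with earlier results of these data known. From each list, the genes with the smallest p past the threshold were named, up to 2 in each direction, plus MAT2A, TRMT112, RNMT and CMTR1 by role. Libraries were grouped by title and numbered in accession order. Alternatives were another pseudocount, no filter, 3 other scalings, each library left out and a block by title suffix. Depth is relative only, so no counting intervals are given. One sequence window and 1 gene of the related lists are not reported here.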

Additional observations from a re-analysis of the deposited data

How the results depend on the processing

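On the deposited values, 1981 genes were higher and 3126 lower. Higher genes numbered 718 with no filter on low values, 3085 after quantile normalization, 3110 with RIP 2 shifted to RIP 1 and 4573 with equal summed FPKM, where 1500 were lower. With 1 library left out, higher genes ran from 0 to 3515 and lower genes from 0 to 3933. The counts of 0 came without either input. In each fit with a library left out, 1 library stands for its group and is assumed to vary like the other group. Without either RIP library the spread comes from the inputs alone, so calls there do not take in the spread between RIP libraries. Of the 9 genes described, 2 were higher with equal summed FPKM and 0 under every other setting run, and the number lower ran from 0 to 3 with 1 library left out. Log2 fold changes turned sign for IGF2BP2 (0.87), PCIF1 (0.70), RNMT (0.86) and CMTR1 (0.81) with equal summed FPKM and for RNMT with RIP 2 shifted (0.026). With 1 library left out they ran from -0.073 (without RIP 1) to 0.93 for ALKBH5, from -0.96 to 0.092 (without RIP 2) for PCIF1, and from -0.54 to 0.032 for RNMT (without input 2; 0.0047 without RIP 1). None of these had passed, and the cause was not tested. An input and a RIP title share a suffix of unstated meaning, and the differences between suffixes correlated at r = 0.21 across genes between input and RIP. With the suffix as a replicate block, 2477 genes were higher and 3466 lower, and no call changed among the 8 tested genes, the genes named from lists by rule or the nearest genes. Depth limits ZCCHC4 most among the tested genes, at about 3.0 reads in RIP 2. IGF2BP1 was listed at 0 there, although its RIP 1 level would have given about 17.0 reads.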
